A study of Mus musculus with 23 samples.

Results

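Expression of 10 canonical target genes of the glucocorticoid receptor was examined in the quadriceps muscle of corticosterone- and vehicle-treated mice. The genes Fkbp5, Tsc22d3, Sgk1, Zbtb16, Dusp1, Errfi1, Ddit4, Cebpb, Cebpd and Rhob were taken by name as widely used readouts of the receptor and were matched by symbol to the Ensembl identifiers of the gene count table. Each symbol matched 1 identifier, so that the set held 10 of the 55573 gene identifiers in the table, and all 10 were among the 13049 genes with enough reads to be tested. The rule for choosing them used no expression threshold, but the choice was made with earlier results of these data known.

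The glucocorticoid receptor, encoded by Nr3c1, is a transcription factor that is held in the cytoplasm by chaperones until it binds a glucocorticoid such as corticosterone, the main adrenal glucocorticoid of mice. It then enters the nucleus and binds DNA at glucocorticoid response elements, palindromes of a hexamer separated by a short spacer, or acts through other bound transcription factors. In skeletal muscle, prolonged glucocorticoid exposure is known to cause atrophy, with lower protein synthesis and higher protein breakdown. Several of its direct targets encode proteins that limit the hormone signal itself, inflammatory signalling or growth factor signalling.

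All 23 mice were C57Bl6 animals (C57BL/6J in the study's methods) aged 8 to 10 weeks. Male and female mice were given a subcutaneous pellet for 14 days and were fasted for 5 hours before they were killed. The corticosterone pellet held 50 mg corticosterone and 50 mg cholesterol and was given to 6 males and 5 females, and the vehicle pellet held 100 mg cholesterol and was given to 6 males and 6 females. Mice are named here by the letter of their sex and the number in their label, odd for vehicle and even for corticosterone. The model has 1 dose and 1 time point, so that early and late responses cannot be told apart. Between 20904150 and 21984477 read pairs per mouse were counted on genes, and the same normalization was used throughout. Values per mouse are given as counts per 1000000 reads (CPM) after TMM normalization, which corrects the library size for composition. The labelled tissue was borne out by its markers, since the summed level of 10 myofiber markers was 104388 to 290112 CPM in every mouse. Transcripts of other tissues varied between mice of the same group. The 7 hepatocyte markers summed to 2327 CPM in M8 and 2291 CPM in F10, and within the treated females the 7 adipocyte markers summed to 270.1 CPM in F8 and to 6899 CPM in F6. In bulk tissue, fewer cells of a type and less RNA per cell cannot be told apart.

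Promoters of the genes were inspected first, because the receptor acts through DNA. RefSeq promoters on GRCm38.p6, from 250 bases before to 50 bases after an annotated start, were at hand for 8 of the 10 genes and numbered 16 in all. None was at hand for Zbtb16 and Cebpd. The consensus glucocorticoid response element, AGAACA and its reverse complement TGTTCT with 3 bases of any kind between them, searched on both strands, was found in 3 of all 32851 promoters (0.00913%) and in 1 of the 16 promoters here, at bases -189 to -175 of an Sgk1 start on chromosome 10. The shorter core ACANNNTGT, which lies inside the consensus, was present in 6.85% of all promoters and in 2 of the 16, both of Sgk1. The hexamer AGAACA, also part of the consensus, was present in 19% of all promoters and in 4 of the 16, those of Sgk1 and Tsc22d3. The cAMP response element TGACGTCA, bound by CREB and related factors, was present in 1.79% of all promoters and in 2 of the 16, at bases -143 to -136 of Dusp1 and -51 to -44 of Errfi1. The 250 bases upstream of 4 starts are shown 5′ to 3′ on the strand of the gene, with matches to the consensus element or to the cAMP response element in capitals. Sgk1 is shown for its consensus element, Dusp1 and Errfi1 for the cAMP response element, and Fkbp5 as the gene with the strongest test result in both sexes, whose window held none of these motifs.
Sgk1, chr10:21993640-21993889, plus strand: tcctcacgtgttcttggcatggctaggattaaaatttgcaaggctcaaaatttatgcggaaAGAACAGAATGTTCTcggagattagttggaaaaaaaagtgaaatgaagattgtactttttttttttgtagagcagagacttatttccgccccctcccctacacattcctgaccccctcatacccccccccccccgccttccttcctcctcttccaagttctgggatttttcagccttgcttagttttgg
Dusp1, chr17:26508473-26508722, minus strand: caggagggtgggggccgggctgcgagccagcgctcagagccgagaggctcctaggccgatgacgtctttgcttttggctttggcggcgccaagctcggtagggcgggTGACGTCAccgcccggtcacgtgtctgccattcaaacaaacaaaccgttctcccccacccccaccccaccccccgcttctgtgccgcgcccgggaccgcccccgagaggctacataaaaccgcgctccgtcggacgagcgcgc
Errfi1, chr4:150854820-150855069, plus strand: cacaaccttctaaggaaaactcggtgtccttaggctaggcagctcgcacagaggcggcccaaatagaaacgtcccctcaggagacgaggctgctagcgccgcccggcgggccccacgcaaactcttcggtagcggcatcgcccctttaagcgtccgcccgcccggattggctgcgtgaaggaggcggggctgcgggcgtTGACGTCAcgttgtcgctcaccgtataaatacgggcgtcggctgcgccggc
Fkbp5, chr17:28486150-28486399, minus strand: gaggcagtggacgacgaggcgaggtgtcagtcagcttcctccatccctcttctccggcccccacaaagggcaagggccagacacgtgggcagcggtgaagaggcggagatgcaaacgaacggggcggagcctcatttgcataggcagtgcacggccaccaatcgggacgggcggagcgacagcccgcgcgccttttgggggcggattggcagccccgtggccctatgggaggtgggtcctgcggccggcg
The palindrome in the Sgk1 sequence reads the same hexamer on both strands, and the Dusp1 and Errfi1 sequences carry an identical 8-base match at different distances from the start. A match is a description of letters in a short window. Counts per gene do not show which start was used, and receptor binding was not measured.

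Corticosterone significantly raised 9 of the 10 genes in males and 6 of the 10 in females. In males all but Dusp1 passed edgeR's quasi-likelihood test at an adjusted p of 0.01, all 9 in the upward direction, where 26.3% of all tested genes passed in either direction and 13.2% rose. In females Fkbp5, Errfi1, Ddit4, Cebpb, Cebpd and Rhob passed, again all upward, where 13.4% of tested genes passed and 7.4% rose. The median log2 fold change (log2FC) of the 10 genes was 1.5 in males and 1.05 in females, against -0.02 and 0.04 over all tested genes. All 6 genes called in females were among those called in males, where 2.85% of tested genes rose in both sexes. The 4 genes that did not pass in females, Tsc22d3, Sgk1, Zbtb16 and Dusp1, each had an unadjusted p under 0.05. Of these, Dusp1 had a negative log2FC (-0.54). Such a p was common, since Tsc22d3, the weakest of the 4, held rank 4859 by p-value among the 13049 tested genes. In males the lowest treated mouse was above the highest vehicle-treated mouse for the same 9 genes, a separation seen upward in 10.8% of tested genes. In females this held for Fkbp5 and Errfi1, against 3.38% of tested genes. Mouse F4 was the lowest of the 5 treated females for 9 genes, and without it 8 of the 10 genes passed in females, with Tsc22d3 and Zbtb16 added. The count in females was 3 when F5, F6 or F7 was left out, and 2 when the sexes were fitted separately.

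Markers of some other cell types moved with treatment as well. Over all tested genes, 13.2% rose and 13.1% fell in males, and 7.4% rose and 6% fell in females. Of 5 erythrocyte markers, 4 rose in both sexes, with sums of 104 to 204 CPM in vehicle-treated and 189 to 674 CPM in treated males, and 84.9 to 398 CPM and 293 to 602 CPM in females. Of 6 fibroblast markers, 4 fell in males (sums of 853 to 1228 CPM and 348 to 508 CPM) and 2 in females (788 to 1569 CPM and 529 to 1014 CPM). In edgeR no hepatocyte, macrophage or endothelial marker passed. At an unadjusted p under 0.05, 3 of 7 macrophage and 5 of 6 endothelial markers were lower in males, and 1 of 7 hepatocyte, 4 of 7 macrophage and 1 of 6 endothelial markers were higher in females. Of 7 adipocyte markers, Lep passed and rose in females, and 6 were higher there at an unadjusted p under 0.05, with a median log2FC of 2.18 over the 7. Actn3 and Atp2a1 of 10 myofiber markers rose in males. The part of these in the results was not tested. Without M8 and F10, the mice richest in hepatocyte markers in their groups, 8 members passed in males and 5 in females. That fit kept M9, M12 and F6, whose hepatocyte markers summed to 1381, 1364 and 1039 CPM.

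**Figure D1:**
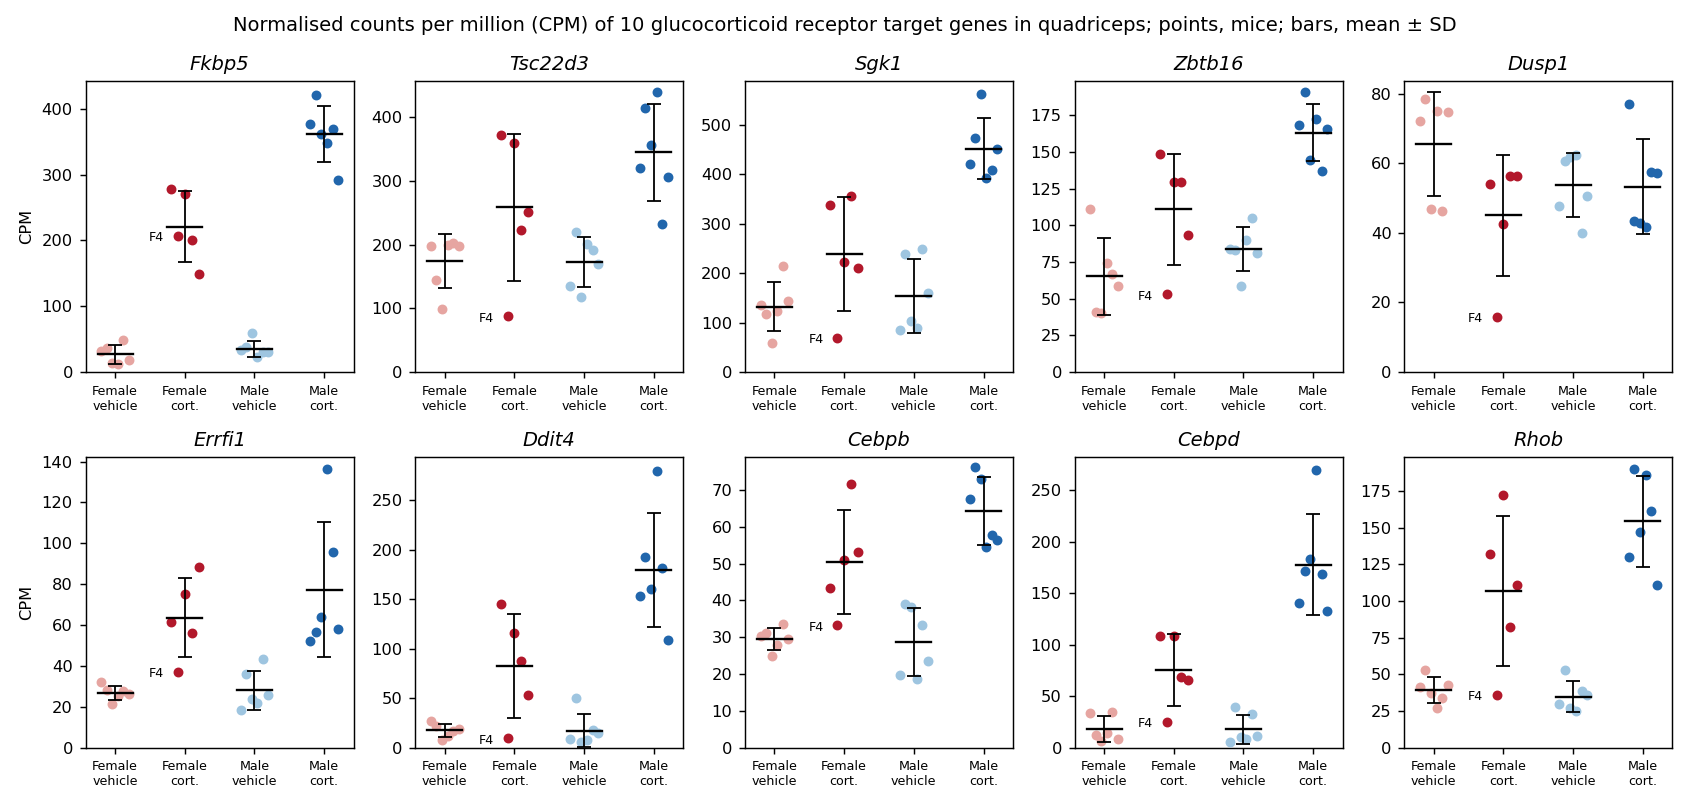
CPM of the 10 genes in each of the 23 mice, with 1 panel per gene and its own linear axis starting at 0; points are mice, and bars are the mean ± SD of the group (6 mice, but 5 in the female corticosterone group). Treated males lie wholly above vehicle-treated males in 9 panels, and mouse F4 is the lowest treated female in all panels but that of Fkbp5.

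Fkbp5 encodes FKBP51, a co-chaperone that lowers the affinity of the glucocorticoid receptor for its hormone and so closes a negative feedback loop. The gene (ENSMUSG00000024222, chr17:28399094-28517527 on GRCm38, minus strand) had the strongest test result of the 10 in both sexes. Its level was 22.7, 31.4 and 58.8 CPM (lowest, median and highest of 6) in vehicle-treated males and 292, 365 and 422 CPM in treated males. In vehicle-treated females it was 12.5, 24.8 and 48.4 CPM. The 5 treated females had 149 (F10), 201 (F8), 207 (F4), 270 (F6) and 278 CPM (F2). No treated mouse overlapped the vehicle group of its sex, and F4 stood in the middle of its group for this gene. The log2FC was 3.36 ± 0.30 (SE, adjusted p = 6.74e-08) in males and 3.05 ± 0.30 (adjusted p = 1.77e-06) in females by edgeR's quasi-likelihood test, which corresponds to 10.3-fold and 8.26-fold higher levels. Among the 13049 tested genes it ranked 9th by p-value in females and 32nd in males. Other annotated transcripts on the same strand overlap the gene, and reads in their shared bases are not counted.

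Tsc22d3 and Dusp1 encode proteins that restrain inflammatory signalling. Tsc22d3 encodes GILZ, a leucine zipper protein that interferes with NF-κB and AP-1. The gene (ENSMUSG00000031431, chrX:140539528-140600659, minus strand) was measured at 119, 180 and 220 CPM in vehicle-treated males and 233, 338 and 439 CPM in treated males. Vehicle-treated females had 99.2, 198 and 203 CPM. The treated females had 87.8 (F4), 223 (F8), 252 (F10), 359 (F6) and 372 CPM (F2). The male groups did not overlap, while 4 of 5 treated females were above every vehicle-treated female and F4 was below them all. Tsc22d3 rose in males (log2FC 1.0 ± 0.26 SE, adjusted p = 0.00421) and did not pass in females (log2FC 0.57 ± 0.27, adjusted p = 0.119). The call in males was lost without M1, M4, M5 or M8, at log2FC values between 0.91 and 1.09 over all fits that left out 1 mouse. In females it passed without F4 (log2FC 0.79, adjusted p = 0.00855).

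Dusp1 encodes MKP-1, a phosphatase that inactivates p38, JNK and ERK and is an immediate early gene as well as a receptor target. The gene (ENSMUSG00000024190, chr17:26505590-26562128, minus strand) was the only member that rose in neither sex. It was measured at 39.9, 55.7 and 62.3 CPM in vehicle-treated males and at 41.7, 50.3 and 77.0 CPM in treated males. Vehicle-treated females had 46.2, 73.4 and 78.5 CPM, and the treated females 15.8 (F4), 42.4 (F6), 54.2 (F2), 56.3 (F8) and 56.3 CPM (F10). The groups overlapped in both sexes, and all 5 treated females were below the mean of the vehicle-treated females. The log2FC was -0.01 ± 0.23 (SE, adjusted p = 0.970) in males and -0.54 ± 0.25 (adjusted p = 0.107) in females. The 95% confidence interval of the male log2FC ran from -0.50 to 0.47, so that a rise of the size seen for Tsc22d3 in males was outside it. Its promoter carries the cAMP response element shown above, as does that of Errfi1, which rose in both sexes. Other annotated transcripts on the same strand overlap Dusp1, and reads in shared bases are not counted.

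Ddit4, Sgk1, Errfi1 and Rhob encode regulators of growth factor signalling, ion transport and the cytoskeleton. Ddit4 encodes REDD1, which inhibits mTORC1, the kinase complex that drives protein synthesis in muscle. The gene (ENSMUSG00000020108, chr10:59949669-59951834, minus strand) was measured at 5.78, 11.7 and 50.1 CPM in vehicle-treated males and 109, 171 and 280 CPM in treated males. Vehicle-treated females had 7.47, 17.9 and 26.9 CPM. In the treated females it was at 9.73 (F4), 53.7 (F10), 87.6 (F8), 116 (F6) and 145 CPM (F2). The level in F4 lay within the vehicle range, while the other 4 treated females were above it. Ddit4 rose in males by a log2FC of 3.37 ± 0.55 (SE, adjusted p = 5.99e-05) and in females by 2.24 ± 0.54 (adjusted p = 0.00444). Among the genes here it had the widest spread between treated females, with a 14.9-fold range, and the widest between vehicle-treated males, with an 8.67-fold range set by M3 at 50.1 CPM. The female call was lost without F2, F5, F6, F7 or F9.

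Sgk1 encodes a serine/threonine kinase downstream of PI3K that regulates ion channels and phosphorylates FOXO factors. The gene (ENSMUSG00000019970, chr10:21882184-21999903, plus strand), the one with the consensus element, was measured at 84.3, 131 and 249.2 CPM in vehicle-treated males and 392, 437 and 564 CPM in treated males. Vehicle-treated females had 58.8, 131 and 214 CPM. The treated females had 68.8 (F4), 210 (F10), 224 (F6), 338 (F2) and 357 CPM (F8). The male groups were separate, whereas 3 of the 5 treated females exceeded the highest vehicle-treated female. Sgk1 rose in males (log2FC 1.55 ± 0.34 SE, adjusted p = 0.00112) and had a log2FC of 0.85 ± 0.35 in females (adjusted p = 0.0745).

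Errfi1 encodes MIG6, a feedback inhibitor of the epidermal growth factor receptor. The gene (ENSMUSG00000028967, chr4:150853919-150868892, plus strand) was at 18.6, 24.8 and 43.5 CPM in vehicle-treated males and 52.4, 61.0 and 136 CPM in treated males. Vehicle-treated females had 21.5, 27.1 and 32.01 CPM, and the treated females 37.2 (F4), 56.0 (F8), 61.3 (F2), 75.0 (F6) and 88.5 CPM (F10). It was the only gene besides Fkbp5 with separate groups in both sexes. Errfi1 rose by a log2FC of 1.45 ± 0.25 (SE, adjusted p = 8.92e-05) in males and 1.24 ± 0.25 (adjusted p = 0.00127) in females.

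Rhob encodes a small GTPase of endosomes and the actin cytoskeleton. The gene (ENSMUSG00000054364, chr12:8497661-8500009, minus strand) was at 24.7, 32.9 and 53.3 CPM in vehicle-treated males and 111, 154 and 190 CPM in treated males. Vehicle-treated females had 27.1, 39.1 and 52.9 CPM, and the treated females 36.2 (F4), 82.4 (F8), 111 (F10), 132 (F2) and 172 CPM (F6). F4 again lay inside the vehicle range and the remaining treated females above it. Rhob rose by a log2FC of 2.14 ± 0.27 (SE, adjusted p = 3.38e-06) in males and 1.45 ± 0.27 (adjusted p = 0.000728) in females.

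Cebpd, Cebpb and Zbtb16 encode transcription factors. CEBPD and CEBPB are leucine zipper factors of the acute phase response and of adipocyte differentiation, and Cebpd is a classical glucocorticoid-induced gene of the latter programme. Cebpd (ENSMUSG00000071637, chr16:15887286-15891031, plus strand) was at 5.66, 11.1 and 39.5 CPM in vehicle-treated males and 133, 170 and 269 CPM in treated males. Vehicle-treated females had 6.34, 13.6 and 34.6 CPM, and the treated females 25.4 (F4), 65.5 (F10), 69.0 (F8), 108 (F6) and 109 CPM (F2). The male groups were far apart, and among females F4 alone fell within the vehicle range. Cebpd rose by a log2FC of 3.31 ± 0.50 (SE, adjusted p = 3.01e-05) in males and 2.04 ± 0.50 (adjusted p = 0.00464) in females. The female call was lost without F2, F5, F6, F7 or F11. In males Ddit4, Fkbp5 and Cebpd held ranks 30, 31 and 34 of all tested genes by log2FC.

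Cebpb (ENSMUSG00000056501, chr2:167688915-167690418, plus strand) had a smaller log2FC than Cebpd and a smaller SD in every group. It was at 18.7, 28.5 and 39.1 CPM in vehicle-treated males and 54.5, 62.6 and 76.1 CPM in treated males. Vehicle-treated females had 24.9, 29.9 and 33.5 CPM, and the treated females 33.2 (F4), 43.3 (F2), 51.1 (F6), 53.0 (F10) and 71.6 CPM (F8). F4 was just below the highest vehicle-treated female and above the other 5. Cebpb rose by a log2FC of 1.16 ± 0.18 (SE, adjusted p = 4.54e-05) in males and 0.77 ± 0.19 (adjusted p = 0.00503) in females. The female call was lost without F1, F5, F6, F7, F8, F10 or F11, at adjusted p-values up to 0.0163.

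Zbtb16 encodes PLZF, a zinc finger repressor with roles in stem cell maintenance and metabolism. The gene (ENSMUSG00000066687, chr9:48654297-48836222, minus strand) was at 58.7, 83.5 and 105 CPM in vehicle-treated males and 137, 167 and 191 CPM in treated males. Vehicle-treated females had 40.1, 62.8 and 111 CPM, and the treated females 53.1 (F4), 93.6 (F10), 129 (F8), 130 (F6) and 149 CPM (F2). The male groups did not overlap, and in females F1, the highest vehicle-treated mouse, exceeded both F4 and F10. Zbtb16 rose in males (log2FC 0.96 ± 0.23 SE, adjusted p = 0.00225) and had a log2FC of 0.76 ± 0.24 in females (adjusted p = 0.0222). It passed in females without F4 (log2FC 0.94, adjusted p = 0.00259), without F1 (log2FC 0.98, adjusted p = 0.00379) and with DESeq2 (adjusted p = 0.00973).

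Whether the response differed between the sexes was tested by the interaction of sex and treatment. None of the 10 genes passed this test in edgeR, DESeq2 or limma-voom, and none had an unadjusted p under 0.05 in edgeR, where 0.69% of all tested genes passed the adjusted threshold. The point estimate of the log2FC was nevertheless higher in males for all 10 genes, with a median difference of 0.48, whereas 45.8% of tested genes had a higher log2FC in males. For Fkbp5, Errfi1 and Zbtb16 this order was reversed in 1 of 30 alternative fits each. The difference was 1.27 for Cebpd (95% confidence interval -0.14 to 2.67, adjusted p = 0.200) and 1.13 for Ddit4 (-0.40 to 2.65, adjusted p = 0.295). For Sgk1 and Rhob it was 0.70 (-0.31 to 1.71) and 0.69 (-0.09 to 1.48). It was smallest for Zbtb16 (0.20, -0.49 to 0.89), Errfi1 (0.21, -0.52 to 0.94) and Fkbp5 (0.31, -0.52 to 1.14). The intervals for Tsc22d3 (0.43, -0.35 to 1.20), Dusp1 (0.53, -0.17 to 1.23) and Cebpb (0.39, -0.16 to 0.93) likewise held 0. All intervals thus allowed no difference as well as a larger or a smaller response in males than in females. For Tsc22d3, Sgk1 or Zbtb16, a passing test in males and a missing one in females therefore does not show a sex difference.

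**Figure D2:**
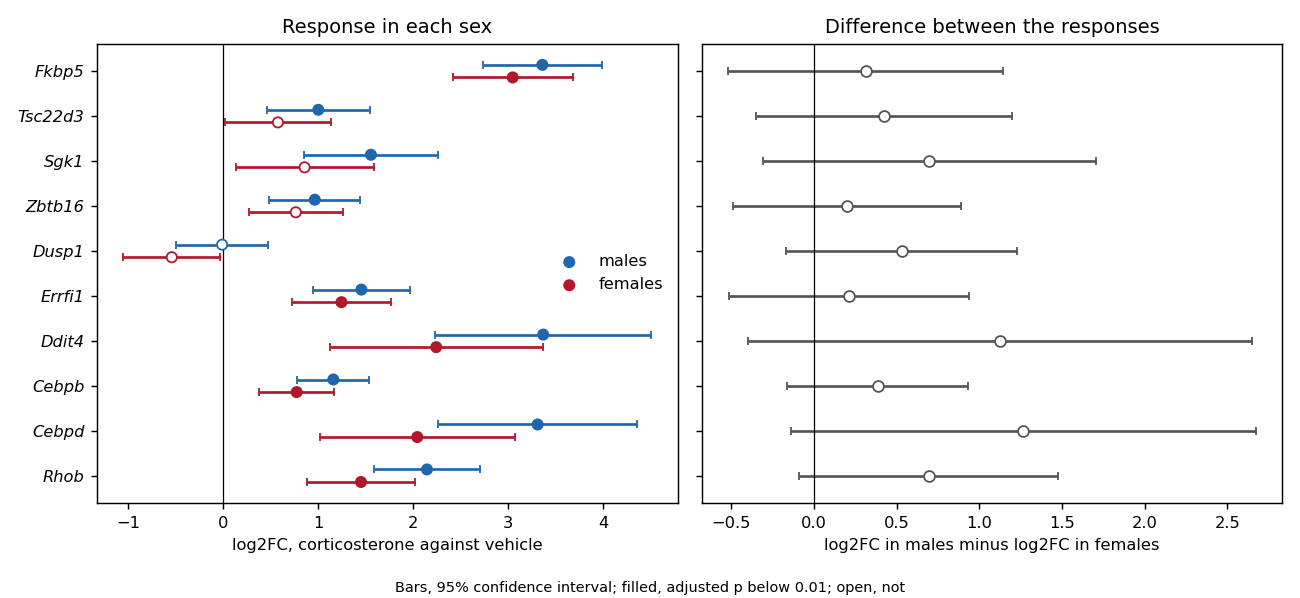
Left, log2FC of corticosterone against vehicle in males and females; right, log2FC in males minus that in females; bars are 95% confidence intervals and filled points have an adjusted p below 0.01. The response is filled for 9 genes in males and 6 in females, and all 10 differences lie above 0 with intervals that include 0.

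Levels in the sexes were also compared within each pellet group. With vehicle, none of the 10 genes differed between males and females in edgeR (0 with an unadjusted p under 0.05), DESeq2 or limma-voom, where 0.958% of tested genes passed, and the estimates ranged from -0.29 for Dusp1 to 0.40 for Fkbp5. With corticosterone none passed in any of these tools either, where 23.3% of tested genes did in edgeR. There 5 of the 10 genes had an unadjusted p under 0.05. The weakest of these, Ddit4, held rank 6196 by p-value among the 13049 tested genes, so that such a p was common. All 10 estimates were higher in males, with a median of 0.54. Every treated male was above every treated female for Fkbp5, Sgk1 and Cebpd, a separation seen upward in 6.87% of tested genes. The log2 difference was 0.71 (adjusted p = 0.0581) for Fkbp5, 0.92 (adjusted p = 0.0457) for Sgk1 and 1.24 (adjusted p = 0.0516) for Cebpd in edgeR's quasi-likelihood test. Both comparisons use the same mice as the responses above and add no independent evidence on them. Whether the sexes were sequenced together is not stated, so that a batch and sex cannot be told apart there.

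Individual treated mice differed in how many of the genes responded. Each of the 6 treated males had 9 or 10 of the 10 genes above the highest vehicle-treated male, where 24% to 31.1% of all tested genes were above it in a treated male. Among treated females this count was 9 in F2, F6 and F8, 7 in F10 and 2 in F4, the 2 being Fkbp5 and Errfi1. The share of all tested genes above the highest vehicle-treated female was 26.6% in F2, 34.6% in F6, 24.4% in F8, 28.9% in F10 and 19.4% in F4, the lowest of the 5. Relative to the mean of vehicle-treated females, F4 had a log2 ratio of 3.0 for Fkbp5 but -1.0 for Tsc22d3, -0.9 for Sgk1, -0.8 for Ddit4 and -2.0 for Dusp1. Of the 1720 genes that rose in males, 45.1% were above the highest vehicle-treated female in F4, against 58.7% in F2, 53.8% in F8, 50.8% in F6 and 32.2% in F10. F4 thus had the lowest or the second lowest count or share of the treated females above the highest vehicle-treated female, while its Fkbp5 level was the median of the group. Above the mean of vehicle-treated females, F4 had 79.2% of the 1720 genes. The shares were 88.7% in F2, 81.8% in F8, 77% in F6 and 53.8% in F10. It had 21308195 reads on genes, its adipocyte markers summed to 1091 CPM and its hepatocyte markers to 127 CPM, both within the range of the vehicle-treated females, and its myofiber markers were the highest of the treated females at 205945 CPM. F8, with the lowest adipocyte marker sum of the treated females (270.1 CPM), and F6, with the highest (6899 CPM), each had 9 of the 10 genes above the vehicle range. F2, at 3633 CPM, also had 9, F10, at 3272 CPM, had 7, and F4 had 2. The part of transcripts of other tissues in these counts was not tested. Among vehicle-treated females F5 was the lowest for 7 of the 10 genes, and among vehicle-treated males M3 was the highest for 5.

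**Figure D3:**
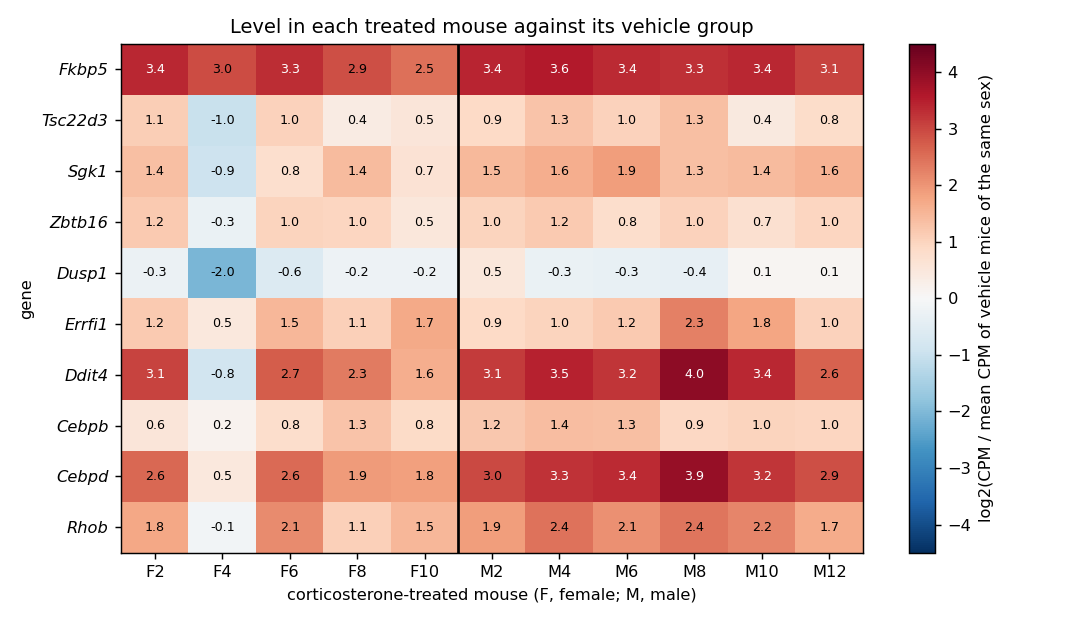
Log2 ratio of the CPM in each of the 11 treated mice to the mean CPM of the vehicle-treated mice of the same sex, by gene; red is higher and blue lower. The column of F4 is at 0.5 or less in 9 rows and at 3.0 for Fkbp5, and the row of Dusp1 is the only one near 0 in most mice.

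Levels of different genes can be compared only per length, so CPM was divided by the length of annotated exon in kilobases (kb). Over the 12 vehicle-treated mice the median was highest for Tsc22d3 (44.9 CPM per kb), followed by Sgk1 (26.6), Cebpb (19.9), Dusp1 (18.5), Rhob (15.5), Zbtb16 (14.7), Ddit4 (8.93), Errfi1 (7.27), Fkbp5 (3.26) and Cebpd (3.24). The order by median over the 11 treated mice was Ddit4 (82.8 CPM per kb), Sgk1 (80.0), Tsc22d3 (73.6), Rhob (56.2), Cebpb (37.5), Cebpd (35.5), Fkbp5 (30.9), Zbtb16 (27.4), Errfi1 (17.1) and Dusp1 (16.4). This order pools the sexes. The mean of Ddit4 was 102 ± 32.6 CPM per kb (SD, n = 6) in treated males and 47.0 ± 30.2 CPM per kb (n = 5) in treated females. In those females the means of Tsc22d3 (59.6 ± 26.6) and Sgk1 (48.8 ± 23.6) were higher, by less than the spread between mice. The ranges of every pair of neighbours overlapped in both orders, so that neighbours were not separated by more than the spread between mice. The exon length sums all annotated transcripts and may exceed that of the transcripts used in muscle.

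**Figure D4:**
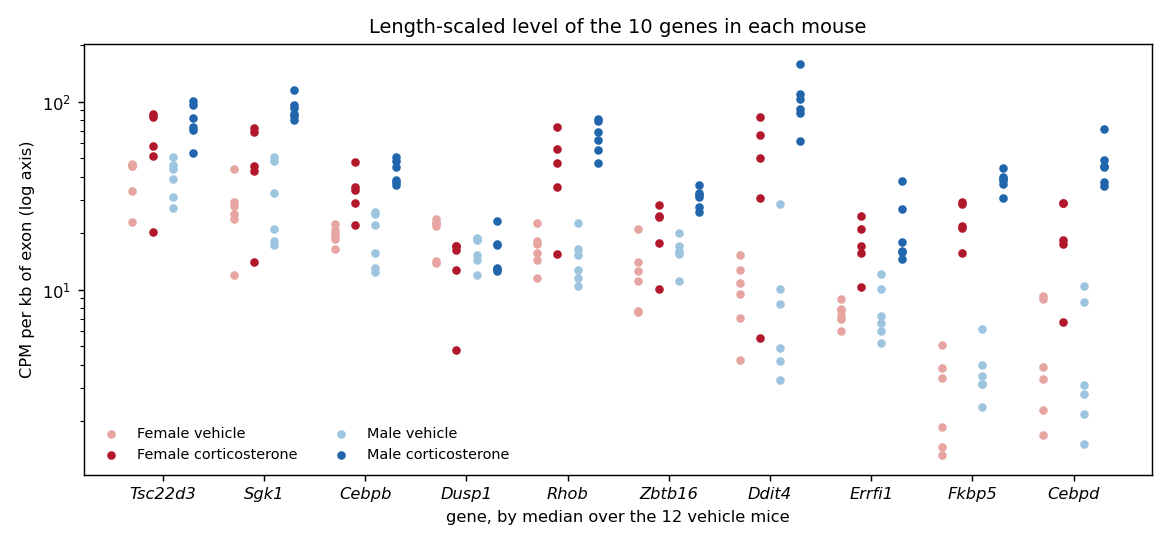
CPM per kb of annotated exon of the 10 genes in each mouse on a log axis, ordered by the median over the 12 vehicle-treated mice. Points of neighbouring genes overlap, while the treated males lie wholly above the vehicle-treated males for 9 genes, all but Dusp1.

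A longer list of 30 other known receptor targets was examined for the same response. This list was also chosen with earlier results of these data known, so that it is no independent check of the 10 genes. All 30 were tested, 18 rose in males and 11 in females, and none fell in either sex in edgeR (1 gene in each sex was lower at an unadjusted p under 0.05). Over all tested genes, 13.2% rose in males and 7.4% in females. The median log2FC was 1.16 in males and 0.67 in females, against -0.02 and 0.04 over all tested genes. The 4 genes with the lowest adjusted p, all in males, were Cdkn1a, Pik3r1, Foxo3 and Foxo1. Cdkn1a, which encodes the cell cycle inhibitor p21, rose by a log2FC of 4.43 ± 0.26 (SE) in males and 2.89 ± 0.24 in females, and Pik3r1, which encodes the p85 subunit of PI3K, by 3.06 ± 0.23 and 2.21 ± 0.23. Lcn2 (4.68 ± 0.48 and 5.61 ± 0.52) and Mt2 (4.1 ± 0.38 and 3.86 ± 0.38), named after their values were seen, had larger log2FC values than Pik3r1 in both sexes and a lower adjusted p in females. Foxo1, a transcription factor of the atrophy programme, rose by 2.66 ± 0.23 in males and 1.70 ± 0.23 in females. Foxo3 rose by 1.54 ± 0.12 in males and 0.52 ± 0.13 in females, and its response was larger in males (interaction 1.02, adjusted p = 0.00607 by edgeR's quasi-likelihood test). The interaction also passed for Sesn1, with a log2FC of 1.64 ± 0.17 in males and 0.03 ± 0.18 in females (interaction 1.61, adjusted p = 0.00385 by the same test). Sesn1 is named after its values were seen. Of the 30 genes, 2 passed the interaction test, where 0.69% of all tested genes passed. Without F4, 12 of the 30 rose in females, and with each sex fitted alone 7 did. F4 had 10 of these 30 genes above the highest vehicle-treated female, and the other treated females 15 to 22. Above the mean of vehicle-treated females, F4 had 20 of the 30, and the other treated females 20 to 27.

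**Figure D5:**
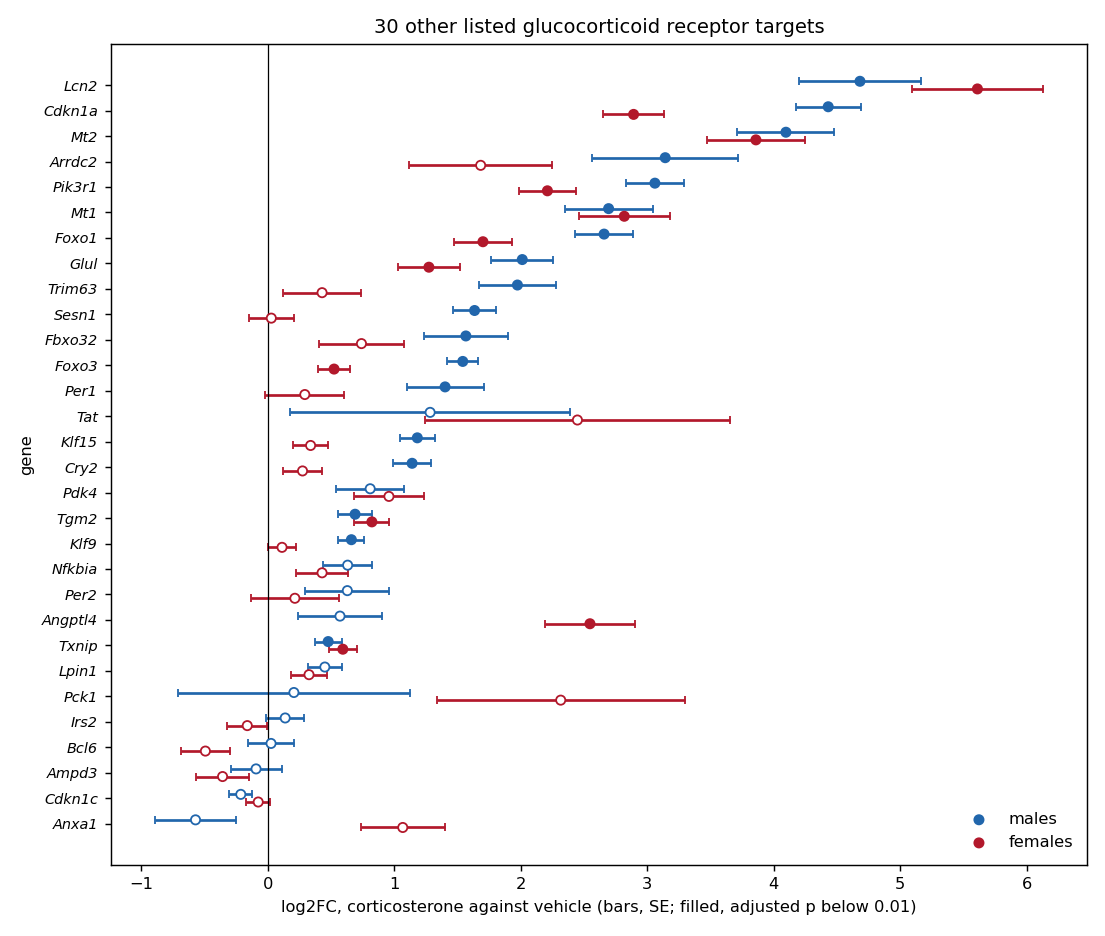
Log2FC of 30 other receptor targets in males and females, ordered by the male value; bars are the SE and filled points have an adjusted p below 0.01. Filled points, 18 in males and 11 in females, all lie to the right of 0.

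Genes that set hormone access and receptor activity showed a mixed picture. Of 6 tested genes of the receptor and its ligand supply, 1 rose and 1 fell in males, and 3 rose and 1 fell in females. Over all tested genes, 26.3% passed in males and 13.4% in females. Nr3c1, the receptor itself, had a log2FC of -0.07 ± 0.12 (SE, adjusted p = 0.688) in males and fell by 0.54 on the log2 scale in females (SE 0.13, adjusted p = 0.00442), and the difference between the sexes did not pass (adjusted p = 0.0786). Its level was 97.7 ± 16.9 CPM (SD, n = 6) in vehicle-treated and 67.2 ± 10.03 CPM (n = 5) in treated females. Abcb1b, which encodes an efflux transporter of steroids, rose in both sexes (log2FC 1.36 ± 0.21 SE in males and 1.12 ± 0.21 in females). Hsd11b1, whose enzyme regenerates active corticosterone, rose in females (log2FC 4.04 ± 0.61 SE, adjusted p = 9.19e-05) and had a log2FC of 1.31 ± 0.54 in males (adjusted p = 0.0570). It was measured at 5.39 to 9.61 CPM in vehicle-treated females and 9.25 to 269.8 CPM in treated females. H6pd, which supplies its cofactor, rose in females (log2FC 1.02 ± 0.20 SE) and had a log2FC of 0.52 ± 0.19 in males (adjusted p = 0.0356). Nr3c2, the mineralocorticoid receptor, fell by 0.46 on the log2 scale in males (SE 0.11). In females it had a log2FC of -0.25 ± 0.12 (adjusted p = 0.128). By edgeR's quasi-likelihood test the interaction did not pass for Hsd11b1 (adjusted p = 0.0304), H6pd (adjusted p = 0.228) or Nr3c2 (adjusted p = 0.393). The 7 adipocyte markers, of which Lep rose in females, summed to 282 to 2595 CPM in vehicle-treated and 270.1 to 6899 CPM in treated females. Their part in the rise of Hsd11b1 and H6pd in females was not tested. Of 15 chaperones and cofactors, 3 rose in males, namely Hsp90ab1 (log2FC 0.34), Fkbp4 (0.34) and Nrip1 (0.81), and 1 in females, Hsp90aa1 (1.45). The interaction passed for none of the 15. These counts of chaperones and cofactors are near the background of 26.3% and 13.4% of all tested genes.

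Relatives of the 10 genes moved in both directions. Of 27 tested paralogs, 5 rose and 4 fell in males, and 1 rose and 2 fell in females, where 26.3% and 13.4% of all tested genes passed in males and females. These counts are near that background. Tsc22d4, a relative of Tsc22d3, fell by 0.76 on the log2 scale in males (SE 0.07) and 0.51 in females (SE 0.07), while Tsc22d1 rose by 0.61 ± 0.10 and 0.41 ± 0.10. Dusp10, a phosphatase related to Dusp1, fell by 1.98 in males (SE 0.24) and 1.11 in females (SE 0.25). Fkbp10, a collagen chaperone related to Fkbp5, fell by 1.35 in males (SE 0.21) and had a log2FC of -0.55 ± 0.21 in females. In males 4 of 6 fibroblast markers also fell, as did 2 in females, and their part in the fall of Fkbp10 was not tested.

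Because Dusp1 is also an immediate early gene, 17 tested immediate early genes were counted. Of these, 7 rose in males, and 5 rose and 1 fell in females, with a median log2FC of 0.74 and 0.27. Over all tested genes, 13.2% rose in males, and 7.4% rose and 6% fell in females. Btg2 (log2FC 1.56 ± 0.20 SE in males and 0.84 ± 0.20 in females) and Ccn1 (2.04 ± 0.28 and 1.32 ± 0.29) rose in both sexes. Jun rose in males (1.13 ± 0.13) and had a log2FC of 0.34 ± 0.14 in females, and its interaction did not pass. Nr4a1, an orphan nuclear receptor, fell by 1.61 on the log2 scale in females (SE 0.18), had a log2FC of -0.22 ± 0.16 in males and passed the interaction test (1.39, adjusted p = 0.00607 by edgeR's quasi-likelihood test). Among 17 partners and substrates of the encoded proteins, 5 rose and 1 fell in males, and 2 rose and 1 fell in females, against 26.3% and 13.4% of all tested genes, so that these counts too are near the background. Egfr, the receptor that MIG6 inhibits, rose by 0.68 ± 0.16 (SE) in males and 1.04 ± 0.16 in females, and Txnip, a REDD1 partner, by 0.48 ± 0.11 and 0.59 ± 0.11. Tsc2 and Tsc1, the complex through which REDD1 acts on mTORC1, rose in males by 0.52 ± 0.08 and 0.42 ± 0.09. In females their log2FC values were -0.004 ± 0.08 and 0.10 ± 0.09, and the interaction passed for neither.

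Finally, the tested genes whose log2 CPM followed that of each member most closely over the 23 mice were listed. Likeness was measured by Pearson's r, which is dominated by the differences between pellet groups that most of these genes share, and it is given as a description. The 3 closest genes were Gabrr2, Depp1 and Pdlim5 for Fkbp5 (r from 0.96 to 0.97) and Klf6, Depp1 and Arrdc3 for Cebpd (0.95 to 0.96). They were Foxo1, Klf6 and Pik3r1 for Rhob (0.94 to 0.96), Gm11730, Arrdc2 and Klf6 for Ddit4 (0.94 to 0.95), and Tob2, Arrdc2 and Lamp1 for Sgk1 (0.88 to 0.93). For Errfi1 they were Trp53inp1, Igfbp3 and E230001N04Rik (0.91 to 0.94), for Zbtb16 Lrrc30, Ppp1r3c and Arhgap35 (0.88 to 0.92), and for Cebpb Polr2l, Mxi1 and Hectd2os (0.90 to 0.91). Tsc22d3 was closest to Ppp1r3c, Tob2 and Arrdc2 (0.85 to 0.86). The closest genes to Dusp1 were Nes, Slco5a1 and Dusp6, with an r of 0.67, the lowest among the 10 members. Klf6 and Arrdc2 each stood among the closest 3 of 3 members.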

How the data were processed

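Gene counts of 23 quadriceps libraries were used. The authors aligned read pairs to mm10 with STAR 2.7.3a and counted pairs unique to 1 gene with HTSeq 0.12.4, set to reverse strand, and deposited raw counts. Entries for unassigned reads (10.7% to 15.3% per mouse) were left out. Groups came from the labels. Names and positions came from GENCODE M21, promoters from RefSeq.

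Genes with over 20 median-of-ratios normalized counts in at least 4 mice of 1 group were tested (13049) with the quasi-likelihood test of edgeR 4.0.16 in R 4.3.3, with TMM factors and 1 mean per group. Benjamini-Hochberg adjustment ran over all tested genes at a threshold of 0.01, and p-values describe the spread between these mice. No 2 replicates differed by less than sampling noise (lowest chi-square per degree of freedom 15.1). The test was checked on simulated counts in which each gene had the same dispersion in all groups, so that groups of unequal spread were not covered. Log2 CPM used a prior count of 1. Alternatives used DESeq2 1.42.0, limma 3.58.1, other filters and factors, single sexes, a block and fits without single mice.

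The members and lists were chosen with earlier results of these data known. Of each list, up to 4 genes with the lowest adjusted p past the threshold are named, with Nr3c1 and Hsd11b1, and the 3 genes most like each member.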

Additional observations from a re-analysis of the deposited data

Results flagged for a closer look

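In 2 of the 40 combinations of gene and group, 1 mouse lay so far from the rest that its gap to the next mouse exceeded Dixon's 95% critical value, and chance gives about 1 in 20. Ddit4 was at 50.1 CPM in M3, a vehicle-treated male, where the next highest of the group had 17.8 CPM and the lowest 5.78 CPM. Cebpd was at 269 CPM in M8, a treated male, where the next highest had 184 CPM and the lowest 133 CPM. M8 also had the highest hepatocyte marker sum of the treated males (2327 CPM), and the part of this in its Cebpd level was not tested.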

How the results depend on the processing

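The count of members called was 9 in males and 6 in females. Leaving out 1 mouse at a time gave 8 to 9 in males and 3 to 8 in females, and 0 throughout for the interaction and for males against females with either pellet. The count in females was 2 when each sex was fitted alone, with Fkbp5 and Errfi1 remaining. Under every other setting the counts were within 1.5 times these values.

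Some estimates changed sign, none of them past the threshold. In the main fit the interaction was 0.31 for Fkbp5, 0.21 for Errfi1 and 0.20 for Zbtb16, and the other estimates that changed sign were near 0. For males against females with vehicle, Ddit4 was 0.00234 with DESeq2 and 0.00243 with median-of-ratios factors, and with limma-voom Tsc22d3 was 0.000872 and Cebpd 0.0368. The interaction for Fkbp5 was -0.00933 with limma-voom. The male log2FC of Dusp1 was 0.0545 without M8 and F10 and 0.000865 with each sex alone. Without single mice, it ranged from -0.147 to 0.0486, and the interaction from -0.0183 to 0.329 for Zbtb16 and -0.0302 to 0.386 for Errfi1. The vehicle comparison ranged from -0.13 to 0.0767 for Tsc22d3, -0.0953 to 0.165 for Errfi1, -0.68 to 0.17 for Ddit4, -0.146 to 0.0601 for Cebpb and -0.42 to 0.25 for Cebpd. The causes were not tested.

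The replicate block on the title numbers called 0 members in the 3 comparisons it could give, and Tsc22d3 was 0.00022 for males against females with vehicle. The numbers are nested in treatment, so that no paired fit of the treatment effect within a sex could be made. Over 11 numbers, deviations of same-numbered mice correlated between 0.08 and 0.48 with vehicle and between -0.38 and 0.24 with corticosterone. Of the 11 females, 4 were closest to their own number. These values cannot decide whether same-numbered mice share more than a number, which is not stated.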
